A study of Mus musculus with 12 samples.

Results

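The transcripts of 9 transcription factor genes of the sine oculis homeobox, Eya and Mef2 families, *Six2*, *Six4*, *Six5*, *Eya1*, *Eya2*, *Eya4*, *Mef2a*, *Mef2c* and *Mef2d*, were followed in mouse satellite cells, the stem cells of skeletal muscle, with and without deletion of the chemokine receptor gene *Cxcr4*. The genes were picked by name from the 55401 genes of the count table. All 9 passed the filter on low counts that left 25771 genes for testing. Of the levels and changes described here, the clearest were a rise of *Mef2c* after overnight culture and lower *Eya4* and *Six5*, in WT and KO cells, whereas none of the 9 genes passed the thresholds between *Cxcr4* KO and WT cells.

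Sine oculis proteins, the products of *Six2* and its relatives, are homeodomain transcription factors that bind the MEF3 motif in muscle promoters. Eya proteins do not bind DNA themselves; they join sine oculis proteins as co-activators and also carry a phosphatase domain. Mef2 proteins are MADS-box factors that bind an AT-rich motif together with the myogenic bHLH factors, and their activity is held down by class II histone deacetylases and raised by calcium signals through CaMK and calcineurin. In skeletal muscle these families act beside Pax7 and Myod1 in the step from stem cell to muscle precursor and in the expression of contractile genes.

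The libraries were made from the RNA of Pax7-ZsGreen+ cells, sorted from mouse hind limb muscle. All mice carried *Cxcr4* FL/FL and the Pax7-ZsGreen reporter and received tamoxifen at 80 mg/kg on 5 days in succession. According to the methods, the mice then stayed on tamoxifen chow until an experiment ended. KO mice also carried Pax7-creERT2, which deletes the floxed gene in Pax7-expressing cells, and WT mice lacked cre, so that the deletion and the presence of cre cannot be told apart. Cells taken straight from the sort are called quiescent (4 WT and 4 KO libraries), and cells kept overnight in growth medium are called activated (2 WT and 2 KO libraries). The mice were adults of 3 to 4 months according to the methods. Whether a library came from 1 mouse or from pooled mice is not given in the sources used here, so the p-values measure the spread between libraries, which may be technical. *Cxcr4* itself measured 80.5 ± 25.3 CPM in quiescent WT and 17.1 ± 3.54 CPM in quiescent KO libraries (SD, n = 4 each), and 23.9 ± 13.3 CPM against 9.54 ± 5.86 CPM in activated libraries (SD, n = 2 each). CPM are counts scaled to a common library size with TMM factors.

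The activated libraries stood apart in several measures that move with the state. Quiescent libraries held 12775593 to 23717013 counts, and activated libraries 3172164 to 5427280. A gene with ribosomal RNA sequence took 0.295% to 0.807% of the counts in quiescent and 11.5% to 40.3% in activated libraries. *Xist* had 1.20 to 7.17 CPM in quiescent and 451 to 817 CPM in activated libraries, whereas *Ddx3y*, on the Y chromosome, had 289 to 570 CPM in quiescent and at most 2.28 CPM in activated libraries. State and sex of the mice therefore cannot be told apart. Satellite cell markers were expressed in all libraries, with a summed level of 8 genes of 3608 to 5606 CPM in quiescent and 1056 to 1637 CPM in activated cells. In these bulk samples, fewer cells of a type and less RNA per cell cannot be told apart.

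The *Mef2* genes differed in the sequence just before their start sites. They are shown here because *Mef2c* was the one member that rose, while its relatives *Mef2a* and *Mef2d* did not pass the thresholds. The sequences are the 250 bases before a RefSeq start in GRCm38.p6, read 5′ to 3′ on the gene's strand, with matches to the MEF3 core TCAGGTT and to the E-box CANNTG, on either strand, in capitals. *Mef2c* has 3 starts in this table, and the one farthest upstream is shown (chr13:83503784-83504033, plus strand). *Mef2a* lies on the minus strand (chr7:67372859-67373108), and *Mef2d* on the plus strand (chr3:88142122-88142371).
Mef2c: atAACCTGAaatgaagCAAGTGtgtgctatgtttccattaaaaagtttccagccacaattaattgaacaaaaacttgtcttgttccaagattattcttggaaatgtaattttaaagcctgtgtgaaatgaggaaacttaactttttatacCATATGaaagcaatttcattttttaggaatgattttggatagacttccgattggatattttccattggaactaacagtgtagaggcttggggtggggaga
Mef2a: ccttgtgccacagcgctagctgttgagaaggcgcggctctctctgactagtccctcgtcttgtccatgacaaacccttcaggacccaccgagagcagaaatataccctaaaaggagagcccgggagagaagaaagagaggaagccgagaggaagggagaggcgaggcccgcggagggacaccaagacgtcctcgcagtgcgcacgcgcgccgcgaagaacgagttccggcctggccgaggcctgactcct
Mef2d: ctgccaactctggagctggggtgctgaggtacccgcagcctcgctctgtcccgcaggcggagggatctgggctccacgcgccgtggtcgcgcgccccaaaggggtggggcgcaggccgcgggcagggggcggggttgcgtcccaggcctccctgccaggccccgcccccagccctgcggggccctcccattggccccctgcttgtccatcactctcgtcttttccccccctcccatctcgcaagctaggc

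The *Mef2c* window was AT-rich, with 33.6% G and C, against 61.6% for *Mef2a*, 73.2% for *Mef2d* and a median of 52.4% over 32851 promoters of the same length. The windows at the other 2 *Mef2c* starts had 44.8% and 49.6% G and C and no MEF3 core. The window shown held the MEF3 core 248 bases and E-boxes 234 and 100 bases before the start. Neither motif was found in the windows of *Mef2a* and *Mef2d*. Over all promoters the MEF3 core was present in 3.49% and the E-box in 66.2%. RefSeq starts were found for 7 of the 9 members, with 11 starts in all. Besides *Mef2c*, the MEF3 core was found once, at a start of *Six4*, 97 bases before it, and the E-box at a start of *Eya4* (56 bases) and at another of *Mef2c* (245 bases). The MEF2 site, found in 2.92% of all promoters, was in none of the 11 windows. These matches describe letters in a window and are no evidence of binding.

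Levels were first compared between genes per length of exon. In quiescent WT cells *Mef2d* led with 56.3 ± 9.38 CPM per kb (SD, n = 4), and no library of another member reached its lowest value of 46.4. *Mef2a* with 9.27 ± 1.93 and *Six2* with 9.22 ± 1.81 CPM per kb came next and overlapped. They were followed by *Six5* with 5.95 ± 1.40 and *Eya4* with 5.03 ± 1.04 CPM per kb, whose libraries also overlapped, and the highest *Six5* library overlapped *Six2*. *Eya1* with 2.44 ± 0.463, *Six4* with 2.20 ± 0.300 and *Mef2c* with 1.85 ± 0.855 CPM per kb lay close together, below all libraries of *Eya4*. *Eya2* was last with 0.980 ± 0.478 CPM per kb, although its highest library overlapped *Mef2c*. Quiescent KO cells had the same leading gene, with 59.0 ± 11.5 CPM per kb for *Mef2d*, and the same last gene, with 1.30 ± 0.781 CPM per kb for *Eya2*. In activated cells the order was another one, since *Mef2c* had moved from near the bottom to the second place, with 13.0 ± 7.38 CPM per kb in WT and 15.6 ± 3.96 CPM per kb in KO cells (SD, n = 2 each). It overlapped *Mef2a* in activated WT cells (10.6 ± 3.31 CPM per kb) and lay above it in activated KO cells (10.3 ± 0.316 CPM per kb). *Mef2d* still led, with 37.65 ± 7.09 CPM per kb in WT and 33.9 ± 0.618 in KO cells. Exon lengths were taken over all annotated transcripts, 15.7 kb for *Mef2c* with 31 transcripts and 2.12 kb for *Six2* with 2, so a gene that uses short isoforms is understated.

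**Figure D1:**
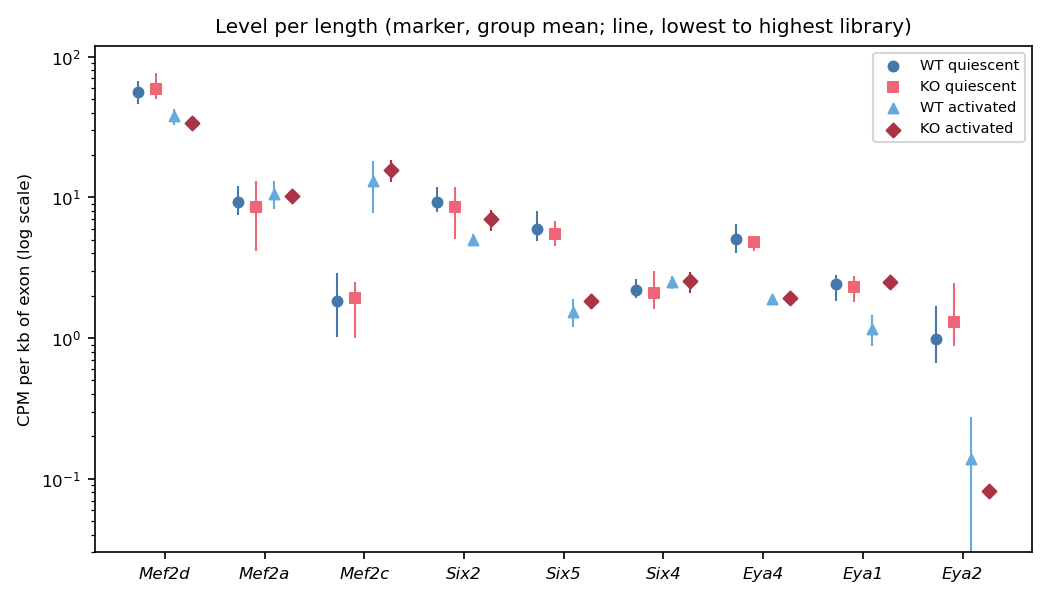
Level of each member per kb of exon on a log axis, with a marker for the mean of each group (4 WT quiescent, 4 KO quiescent, 2 WT activated and 2 KO activated libraries) and a line from the lowest to the highest library. *Mef2d* is highest in each group, *Mef2c* moves from 1.85 to 13.0 CPM per kb between quiescent and activated WT cells, and the line of *Eya2* in activated WT cells is cut at the foot of the axis because 1 library has no count.

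The first comparison asked how the families differ between freshly sorted cells and cells kept overnight in culture. In WT cells 1 member rose and 4 fell (adjusted p under 0.05, log2 fold change beyond 1, mean count over 10), against 26.2% of all genes tested that were called, 9.65% higher and 16.5% lower. The members' median log2 fold change was -0.87, beside -0.92 over all genes tested. In KO cells 1 member rose and 3 fell, where 29.6% of all genes were called, 11.1% higher and 18.5% lower, and the medians were -0.29 for the members and -0.96 for all genes. The median over all genes moved with depth and filter. With quiescent libraries thinned to the depth of activated ones it was -0.21 in WT and -0.23 in KO cells. Without the filter on low counts it was -1.93 and -1.84. The medians over all genes, here and below, are therefore no fixed baseline. *Mef2c* was the member that rose in each genotype, and *Eya2*, *Eya4* and *Six5* were called lower in each. *Eya1* was called lower in WT cells. The groups did not overlap for 7 of 9 members in WT and for 5 of 9 in KO cells, where 56.0% and 54.4% of all genes did not overlap.

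**Figure D2:**
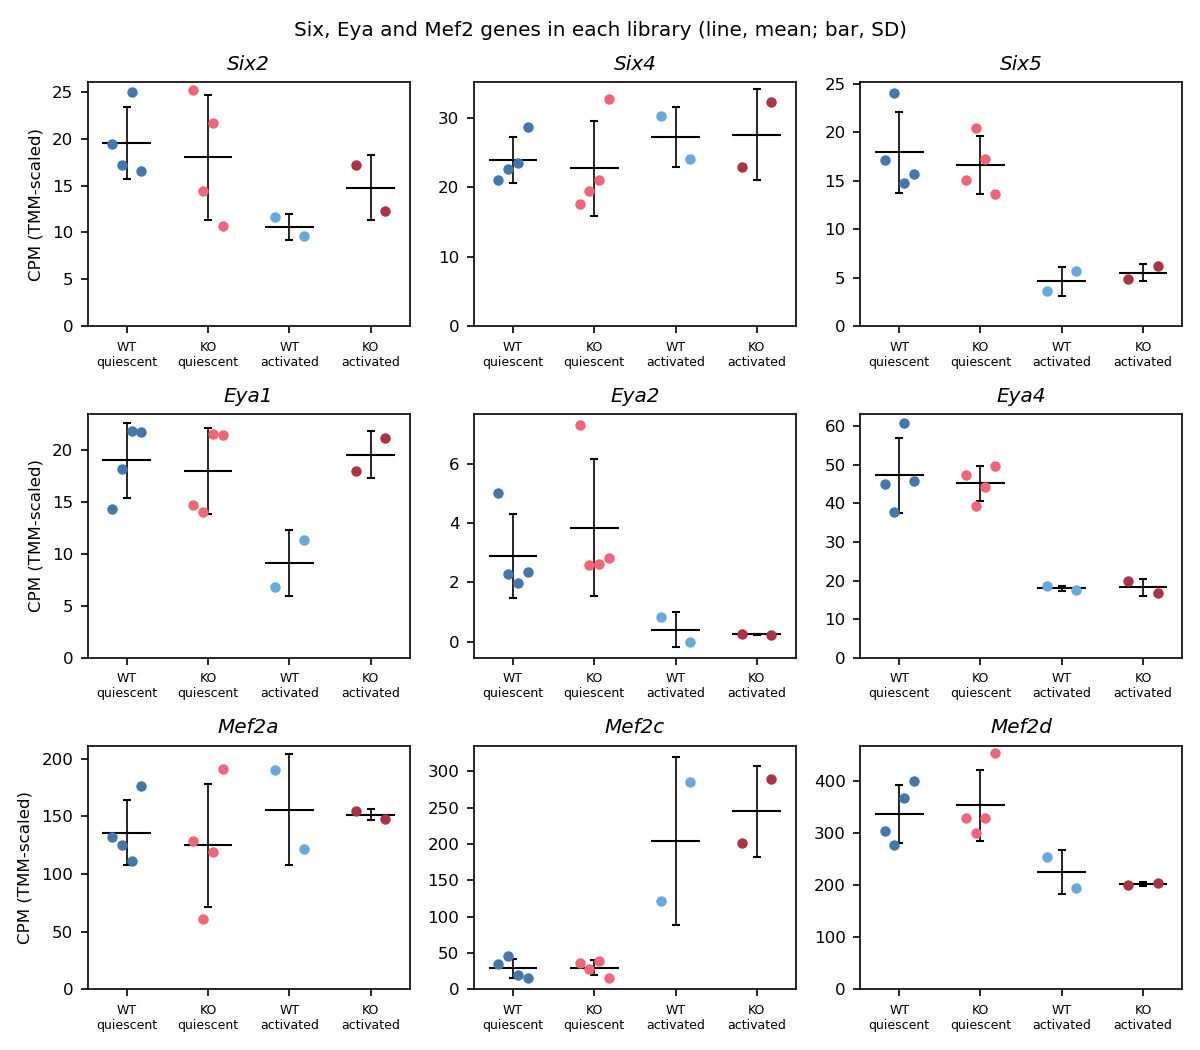
CPM of each member in each of the 12 libraries (points), with the group mean (line) and SD (bar), 1 panel per gene on its own linear axis. *Mef2c* lies between 15.7 and 45.4 CPM in quiescent and between 122 and 289 CPM in activated libraries, and *Six5* and *Eya4* show the reverse order without overlap.

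Gene positions are those of GENCODE M21 on GRCm38. Among the Mef2 factors, *Mef2c* (ENSMUSG00000005583, chr13:83504034-83667080, plus strand) is the one best known for driving muscle differentiation genes, and it is also expressed in endothelial cells and mature fibres. In quiescent WT libraries it had 34.3, 45.4, 20.5 and 15.9 CPM, and in quiescent KO libraries 37.0, 28.4, 39.3 and 15.7 CPM. The activated libraries had 122 and 286 CPM in WT and 201 and 289 CPM in KO cells. Each activated library thus lay well above each quiescent one, with the lower value in replicate 1 of either genotype. Replicate 1 also had the smaller share of the ribosomal gene. That share was 12.6% in WT and 11.5% in KO cells, against 40.3% and 28.8% in replicate 2. A link between this share and the level of *Mef2c* was not tested. *Mef2c* rose 7.04-fold in mean CPM in WT (log2 fold change 2.81, standard error 0.40, adjusted p = 2.29e-05) and 8.14-fold in KO cells (3.02, standard error 0.40, adjusted p = 8.94e-06) in edgeR's quasi-likelihood test. It was called in all 20 alternative fits in each genotype, with log2 fold changes of 2.12 to 3.38 in WT and 2.65 to 3.26 in KO cells.

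Markers of mature muscle fibres moved with *Mef2c*. All 11 genes of the fibre list were higher in each activated library than in any quiescent one. Their summed level was 334 to 1134 CPM in quiescent libraries, 7745 and 17159 CPM in activated WT libraries and 10222 and 18497 CPM in activated KO libraries. The 4 activated libraries had the same order for *Mef2c* and for the fibre list. Markers of early differentiation overlapped between the states for 6 of 6 genes, with sums of 48.7 to 206 CPM in quiescent and 45.3 to 131 CPM in activated libraries. Endothelial markers also overlapped for 6 of 6 genes, with 222 to 986 CPM in quiescent and 89.8 to 647 CPM in activated libraries. The part of fibre or endothelial RNA in the level of *Mef2c* was not tested.

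**Figure D3:**
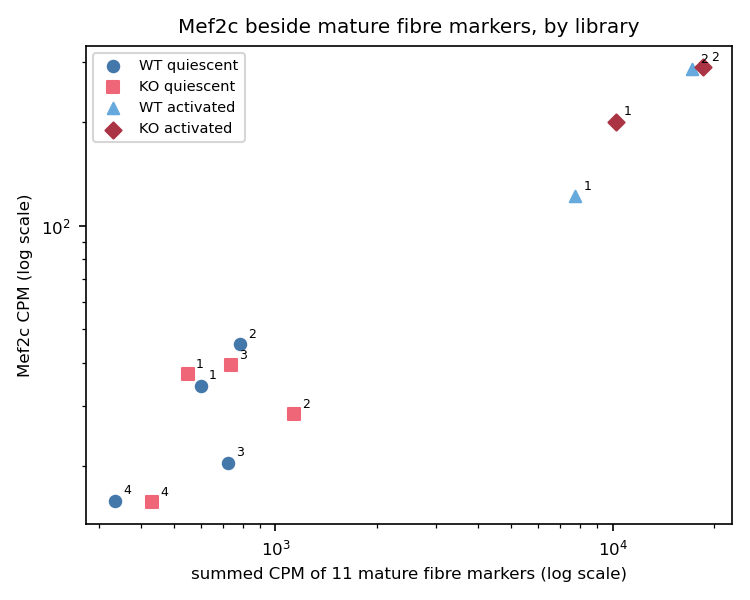
*Mef2c* CPM against the summed CPM of 11 mature fibre markers, both on log axes, 1 point per library with its replicate number. The 8 quiescent libraries lie between 334 and 1134 CPM on the fibre axis, and the 4 activated libraries lie between 7745 and 18497 CPM and rank alike on both axes.

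*Mef2d* (ENSMUSG00000001419, chr3:88142372-88172086, plus strand), the most abundant member, had 304, 278, 367 and 400 CPM in quiescent WT and 330, 300, 329 and 454 CPM in quiescent KO libraries. Activated libraries had 255 and 195 CPM in WT and 200 and 205 CPM in KO cells, so that the states did not overlap in either genotype. By edgeR's test it differed by -0.58 ± 0.26 (SE) on the log2 scale in WT (adjusted p = 0.0968) and by -0.80 ± 0.26 in KO cells (adjusted p = 0.0240), and neither reached the fold change asked for. *Mef2a* (ENSMUSG00000030557, chr7:67231163-67372858, minus strand), another broadly expressed Mef2 factor, had 132, 125, 111 and 176 CPM in quiescent WT and 129, 61.1, 119 and 191 CPM in quiescent KO libraries. With 190 and 122 CPM in activated WT and 155 and 148 CPM in activated KO cells, its states overlapped. Its log2 fold changes were 0.20 (standard error 0.33) and 0.27 (standard error 0.33).

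Of the Eya co-activators, *Eya2* and *Eya4* fell in each genotype and *Eya1* in WT cells. *Eya4* (ENSMUSG00000010461, chr10:23102963-23350786, minus strand) had 45.0, 37.7, 60.9 and 45.8 CPM in quiescent WT and 47.5, 39.4, 44.3 and 49.8 CPM in quiescent KO libraries. All activated libraries were far below these, with 18.5 and 17.5 CPM in WT and 19.8 and 16.7 CPM in KO cells. *Eya4* fell by 1.39 on the log2 scale in WT (standard error 0.28, edgeR's adjusted p = 0.000706) and by 1.31 in KO cells (standard error 0.27, adjusted p = 0.000991), and it was called in all 20 alternatives in each genotype.

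*Eya2* (ENSMUSG00000017897, chr2:165595032-165771727, plus strand) was the rarest member. It had 96, 32, 45 and 49 counts in quiescent WT libraries (5.01, 2.27, 1.97 and 2.36 CPM) and 140, 38, 63 and 60 counts in quiescent KO libraries (7.30, 2.60, 2.62 and 2.83 CPM). In activated libraries it had 5 and 0 counts in WT and 1 and 1 counts in KO cells. Replicate 1 was highest in each quiescent group. The activated libraries, with at most 0.817 CPM, lay below all quiescent ones. Per unit of depth the activated level was 0.206 of the quiescent one in WT (exact 95% interval 0.0662 to 0.488) and 0.0635 in KO cells (0.00765 to 0.231). These intervals cover counting error only. *Eya2* was called lower in WT (log2 fold change -2.43, standard error 0.89, edgeR's adjusted p = 0.0465) and in KO cells (-3.94, standard error 1.02, adjusted p = 0.00585). The WT value rests on 5 counts in 1 library: it was -1.76 without activated WT replicate 2, and -8.46 without replicate 1, where the only library left has 0 counts and the fitted value is no bound. The WT call was close to the threshold and was kept in 8 of 20 alternatives. It was lost on leaving out any activated library, quiescent WT replicate 1, 2 or 4 or quiescent KO replicate 3, with the highest adjusted p of 0.291 without activated WT replicate 2. The KO call was kept in 18 of 20 and was lost without activated KO replicate 1 (edgeR's adjusted p = 0.0553) or 2 (0.0670).

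*Eya1* (ENSMUSG00000025932, chr1:14168954-14310235, minus strand) was called in WT but not in KO cells. In the quiescent state it had 14.3, 18.2, 21.9 and 21.8 CPM in WT and 14.7, 14.1, 21.6 and 21.5 CPM in KO libraries. The activated WT libraries had 6.86 and 11.4 CPM, and the activated KO libraries 18.0 and 21.2 CPM. Activated WT libraries thus lay below all quiescent WT libraries, while the activated KO libraries lay within the quiescent KO range. *Eya1* fell by 1.11 on the log2 scale in WT cells (standard error 0.35, edgeR's adjusted p = 0.0220) and moved by 0.12 ± 0.32 (SE) in KO cells, with an adjusted p of 0.766. The WT call was kept in 17 of 20 alternatives, and without activated WT replicate 1 the log2 fold change was -0.67 (adjusted p = 0.425). It was also lost with thinned quiescent libraries and in the fit with a replicate block (log2 fold change -0.84, adjusted p = 0.0609).

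Of the sine oculis factors, *Six5* (ENSMUSG00000040841, chr7:19094594-19098549, plus strand), a homeobox gene beside the myotonic dystrophy kinase locus, was the one called. It had 17.1, 24.1, 14.8 and 15.7 CPM in quiescent WT and 15.1, 20.5, 17.2 and 13.6 CPM in quiescent KO libraries. Activated libraries had 3.59 and 5.69 CPM in WT and 4.88 and 6.16 CPM in KO cells, without overlap. These activated levels rest on few counts, 22 and 13 in WT and 19 and 27 in KO libraries. *Six5* fell by 2.00 on the log2 scale in WT (standard error 0.38, edgeR's adjusted p = 0.000515) and by 1.58 in KO cells (standard error 0.36, adjusted p = 0.00233). The calls were kept in 20 and 19 of 20 alternatives, and the KO call was lost without activated KO replicate 1 (edgeR's adjusted p = 0.0509).

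*Six4* (ENSMUSG00000034460, chr12:73099609-73113456, minus strand), a regulator of early myogenesis, had 21.0, 22.6, 23.5 and 28.6 CPM in quiescent WT, 17.5, 19.5, 21.0 and 32.7 CPM in quiescent KO, 30.2 and 24.1 CPM in activated WT and 22.9 and 32.2 CPM in activated KO libraries. All groups overlapped, and the log2 fold changes on activation were 0.19 (standard error 0.30) in WT and 0.28 (standard error 0.29) in KO cells. *Six2* (ENSMUSG00000024134, chr17:85684277-85688274, minus strand), best known from the kidney progenitor, had 19.4, 17.2, 25.0 and 16.6 CPM in quiescent WT and 25.2, 14.4, 21.7 and 10.7 CPM in quiescent KO libraries. With 11.6 and 9.63 CPM in activated WT libraries it lay below all quiescent WT libraries, but its change of -0.87 ± 0.37 (SE) on the log2 scale did not pass in edgeR's test (adjusted p = 0.0837). The activated KO libraries, with 17.2 and 12.3 CPM, overlapped the quiescent ones (log2 fold change -0.29, standard error 0.35).

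The called falls of *Six5*, *Eya2* and *Eya4* came together with lower levels of other cell markers. In the satellite cell list 7 of 8 genes were lower in each activated library than in any quiescent one, and the same held for 3 of 7 blood, 2 of 5 smooth muscle and pericyte, 2 of 4 glial and 0 of 6 fibroadipogenic progenitor markers. Smooth muscle and pericyte markers summed to 458 to 1746 CPM in quiescent and 167 to 374 CPM in activated libraries, glial markers to 166 to 385 and 29.3 to 135 CPM, and blood markers to 53.4 to 206 and 20.8 to 34.0 CPM. Fibroadipogenic progenitor markers summed to 286 to 2966 CPM in quiescent and 250 to 730 CPM in activated libraries. The part of these cells in the falls was not tested.

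**Figure D4:**
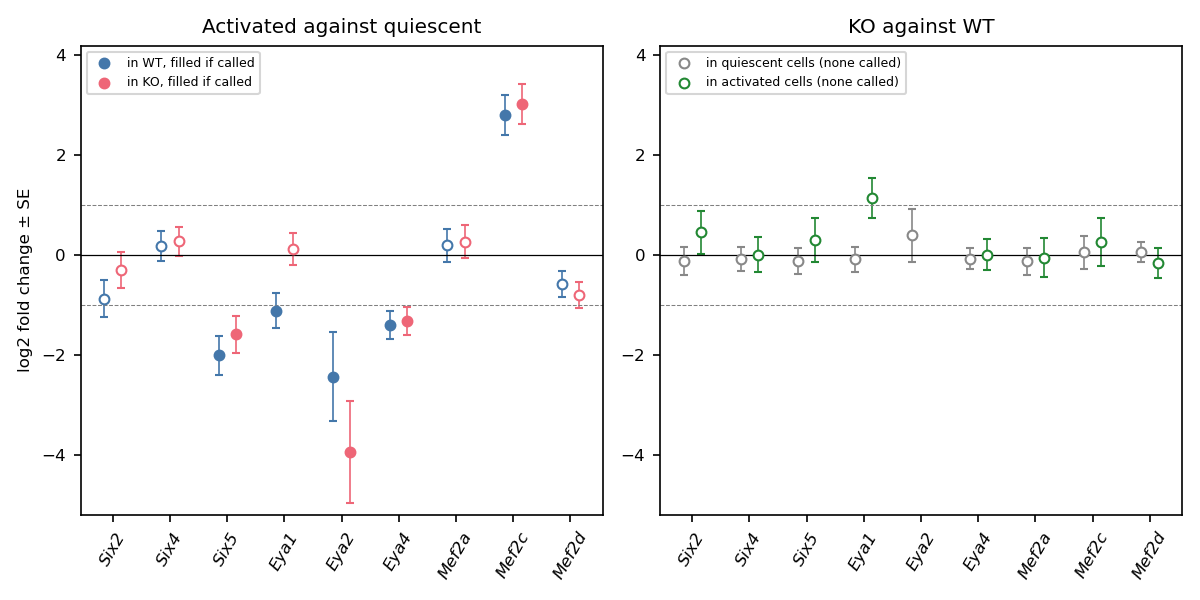
Log2 fold changes of the 9 members with their standard errors, activated against quiescent cells in WT and KO (left) and KO against WT cells in each state (right), with dashed lines at 1 and -1. Filled points passed the thresholds, which 5 members did in WT and 4 in KO cells on activation and none did between KO and WT. *Eya2* in activated cells is left out on the right because it has 5 and 2 counts in all.

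The makeup of each family was then compared between the states, as the share of each member in the summed level per kb of all genes of its family in the table, 14 genes in 3 families. State labels were permuted within genotype, which gives 225 arrangements and a smallest p of 0.00444, and p-values were adjusted over 18 tests of share. The share of *Mef2c* in the Mef2 family was 1.26% to 4.91% in quiescent WT, 1.10% to 3.75% in quiescent KO, 12.3% and 30.8% in activated WT and 22.5% and 29.1% in activated KO libraries. It was 20.8 points higher in activated cells (exact two-sided permutation p = 0.00444, adjusted p = 0.016). *Mef2d* gave up about as much, with a difference of -23.9 points (exact permutation p = 0.00444, adjusted p = 0.016), from 78.9% to 87.1% in quiescent to 54.4% to 67.3% in activated libraries. *Mef2a* differed by 4.63 points, which did not pass the adjustment (exact permutation p = 0.0267, adjusted p = 0.0735).

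In the Eya family the share of *Eya4* differed by -22.4 points in activated cells, from 34.5% to 46.5% in quiescent to 13.1% to 20.4% in activated libraries (exact permutation p = 0.00444, adjusted p = 0.016). The share of *Eya2* differed by -8.06 points (same p and adjusted p), and that of *Eya1* differed by -3.34 points (exact permutation p = 0.333). In the sine oculis family *Six5* went from 12.2% to 19.1% in quiescent to 3.84% to 5.77% in activated libraries, a difference of -10.0 points (exact permutation p = 0.00444, adjusted p = 0.016). *Six2* and *Six4* differed by -6.54 points (exact permutation p = 0.133) and 1.46 points (exact permutation p = 0.209). None of the 9 shares differed between KO and WT after adjustment. The smallest p between the genotypes was that of *Eya4*, at -4.68 points in KO cells (exact permutation p = 0.0286 over 420 arrangements, adjusted p = 0.0735). Shares within a family sum to a whole, so these tests are not independent of each other.

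**Figure D5:**
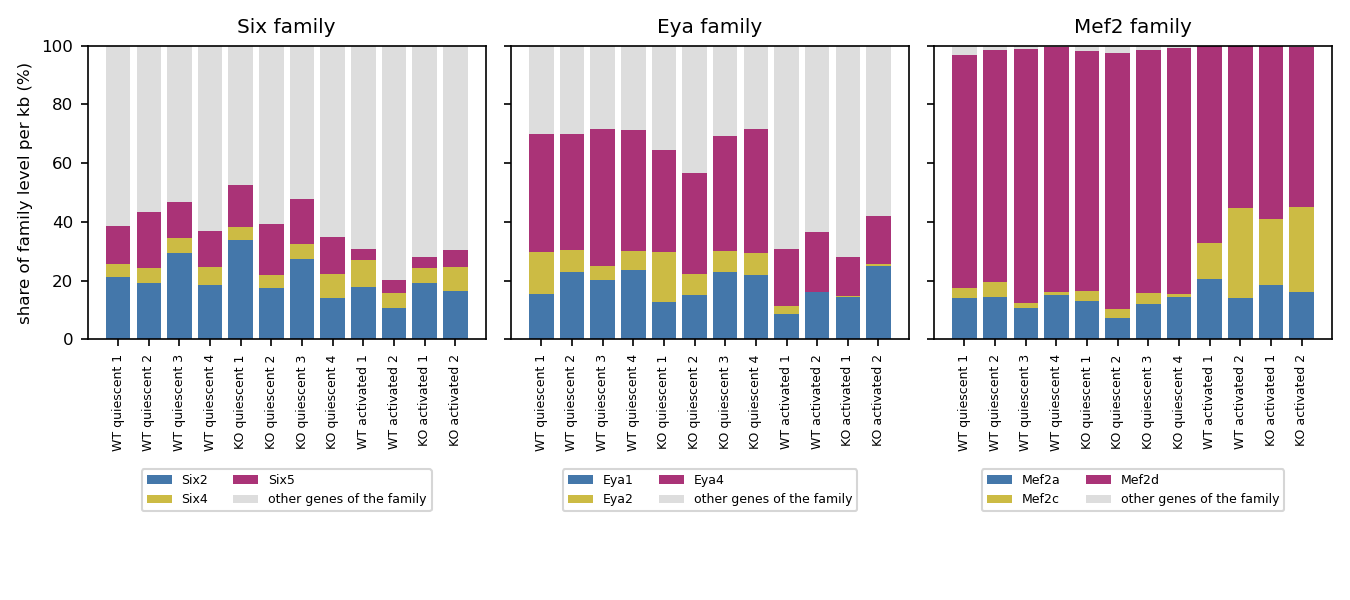
Share of each member in the summed level per kb of its family, in percent, as stacked bars for each of the 12 libraries, with the other genes of the family in grey. *Mef2c* takes 1.10% to 4.91% in quiescent and 12.3% to 30.8% in activated libraries, and *Eya4* and *Six5* take less in activated than in quiescent libraries.

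The second comparison asked whether these factors differed between KO and WT cells. *Cxcr4* RNA was lower in KO cells but not absent. It had 12.5 to 21.2 CPM in KO against 59.1 to 112 CPM in WT libraries when quiescent. Activated libraries had 5.39 and 13.7 CPM in KO against 33.3 and 14.4 CPM in WT cells. In quiescent cells 0 of 9 members were called between KO and WT in edgeR's test, where 0.0155% of all genes were called, and 0 had an unadjusted p under 0.05, as 1.74% of all genes did. DESeq2 also called 0 members. No member had groups without overlap, as 1.7% of all genes did. The log2 fold changes lay between -0.12 for *Mef2a* (standard error 0.27) and 0.40 for *Eya2* (standard error 0.53), with 0.06 for *Mef2c* (standard error 0.34) and -0.08 for *Eya1* (standard error 0.25). The median was -0.08, beside 0.02 over all genes.

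In activated cells 0 of 9 members were called by edgeR and by DESeq2, where edgeR called 0.0504% of all genes, and 1 member had an unadjusted p under 0.05, as 8.37% of all genes did. This was *Eya1*, with 18.0 and 21.2 CPM in KO against 6.86 and 11.4 CPM in WT libraries. Its KO level was 2.15-fold the WT level and did not overlap it (log2 fold change 1.15, standard error 0.39, unadjusted p = 0.00870, edgeR's adjusted p = 0.384). The difference between the KO effects in the 2 states was 1.23 on the log2 scale for *Eya1* (standard error 0.47, unadjusted p = 0.0158, adjusted p = 0.642), so a genotype difference in its response to culture was not established. Without activated WT replicate 1 these values were 0.69 between activated KO and WT cells and 0.77 between the states. *Six2* also did not overlap, with 17.2 and 12.3 CPM in KO against 11.6 and 9.63 CPM in WT libraries (log2 fold change 0.46, standard error 0.42). With groups of 2 libraries, 24.7% of all genes did not overlap.

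The remaining members differed little from WT in activated KO cells in relation to their errors. On the log2 scale *Mef2c* differed by 0.27 ± 0.47 (SE), *Six5* by 0.31 ± 0.44, *Mef2d* by -0.15 ± 0.29 and *Mef2a* by -0.05 ± 0.39. *Eya4* and *Six4* were both at 0.01, with standard errors of 0.31 and 0.35, and their sign turned with the scaling. *Eya2* had too few counts for a fold change. Differences within these errors were not detectable at this depth. For the difference between the states 0 of 9 members were called, as was 0% of all genes, with 1 member and 6.59% of all genes at an unadjusted p under 0.05 and 0 members called by DESeq2.

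Other genes of the same pathways were taken from 3 lists. Of 11 genes of the network of Pax, sine oculis, Eya and Dach genes, 1 rose and 3 fell in WT, and 1 rose and 4 fell in KO cells, beside 26.2% and 29.6% of all genes called. The medians were -1.84 in WT and 0.05 in KO cells, beside -0.92 and -0.96 over all genes. They include *Six3* and *Six6*, which had few counts (means of 3.23 to 17.6). *Six3* had log2 fold changes of -7.73 in WT (standard error 3.11) and 0.76 in KO cells (standard error 1.36). Those of *Six6* were -5.28 (standard error 4.32) and 1.33 (standard error 1.94). Neither was called, and 0 genes of this list were called for the difference of the KO effect between the states. *Pax3* and *Pax7*, the paired-box factors of muscle progenitors, and *Sobp*, a binding partner of sine oculis proteins, fell in each genotype. *Pax3* had log2 fold changes of -3.75 in WT and -4.25 in KO cells. For *Sobp* they were -1.84 and -1.81. For *Pax7* they were -1.84 in WT (standard error 0.31) and -1.30 in KO cells (standard error 0.31).

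Of 32 partners and regulators of Mef2 proteins, 2 rose and 14 fell in WT, and 5 rose and 12 fell in KO cells, again beside 26.2% and 29.6% of all genes. The medians were -0.70 and -0.44, beside -0.92 and -0.96 over all genes. *Smyd1*, a muscle methyltransferase, rose by a log2 fold change of 3.47 in WT and 3.60 in KO cells, each with a standard error of 0.47. *Sik1*, a kinase that acts on class II histone deacetylases, fell, with log2 fold changes of -3.65 and -3.82. The calcineurin-dependent factors *Nfatc1* and *Nfatc2* fell, with log2 fold changes of -2.84 and -3.02 in WT and -3.69 and -3.89 in KO cells.

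Of 22 muscle genes known as targets of sine oculis or Mef2 proteins, 7 rose and 6 fell in WT, and 9 rose and 5 fell in KO cells, beside the same shares of all genes. The medians were -0.49 and 0.39, beside -0.92 and -0.96 over all genes. *Xirp2* rose by a log2 fold change of 6.50 in WT and 5.96 in KO cells, *Myl1* by 5.31 and 5.94, and *Tnni2* by 4.54 and 4.82, which are genes of the sarcomere and its attachment. *Myf6*, a myogenic bHLH factor, rose by 3.32 and 5.59, and *Ckm*, the muscle creatine kinase, which is also in the fibre list above, by 4.15 and 4.09. Other muscle structural genes of this list, *Myh3*, *Actc1*, *Tnni1* and *Des*, were not called in either genotype. Their log2 fold changes were -2.02, -1.11, -0.78 and -0.75 in WT and 1.12, -0.41, 0.83 and -0.49 in KO cells. *Myom1* was called higher in each genotype and *Tnnc1* in KO cells alone. The part of fibre RNA in these rises was not tested. *Nr4a1*, an early response gene with Mef2 sites, fell, with log2 fold changes of -4.69 and -5.17. *Klf4* (-4.01 in WT and -3.71 in KO cells) and *Myf5* (-3.76 and -3.69), another myogenic bHLH factor, were also called lower in each genotype. So were *Jun* (-2.32 and -2.58) and *Klf2* (-1.63 and -2.44). In each genotype alike, 7 genes of the list were called higher and 5 lower. *Myod1* (log2 fold change -0.23 in WT, standard error 0.49, and -0.30 in KO cells, standard error 0.49) and *Myog* (-1.12, standard error 0.91, and -0.06, standard error 0.81) did not pass the test. Between KO and WT cells 0 of the 65 genes of the 3 lists were called in either state by edgeR's test, with 2 at an unadjusted p under 0.05 in quiescent cells, beside 1.74% of all genes, and 10 in activated cells, beside 8.37% of all genes. DESeq2 called 1 of them in activated cells, *Xirp1*.

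For each member the genes with the most similar log2 CPM over the 12 libraries, at most 2, were looked up among the 6836 genes whose log2 CPM averaged above 4. These correlations are a description, since the 2 states lie apart and many genes differ between them. *Mef2c* was most like *Rab1b* (r = 0.994) and *Selenow* (r = 0.988), *Mef2d* like *Arid4b* and *Wdr26* (r = 0.987 each), and *Mef2a* like *Gna12* (r = 0.922) and *Zc3h18* (r = 0.914). *Eya4* was most like *Kmt2e* (r = 0.989), *Eya2* like *Rnf213* (r = 0.978) and *Tnfaip3* (r = 0.974), and *Eya1* like *Clasp2* (r = 0.948) and *N6amt1* (r = 0.941). Among sine oculis genes, *Six5* was most like *Rras* (r = 0.977) and *Pag1* (r = 0.975), *Six4* like *Rab14* (r = 0.923) and *Rnf11* (r = 0.922), and *Six2* like *Ablim3* (r = 0.824) and *Pbx2* (r = 0.821). *Six2* thus had the least close neighbour of the 9 members.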

How the data were processed

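Raw read counts per gene and FPKM, 1 value per group, were deposited. According to the submitters' processing notes and methods, the authors trimmed reads with Trim Galore 0.6.0, mapped them with STAR 2.7.2a to GRCm38.p6 and counted reads over GENCODE genes; the notes also name DESeq2 1.34.0. How multi-mapping reads and strand were treated is not given in the sources used here. The deposited FPKM were used to check exon lengths: 35 of 36 group values lay within 1 SD of the mean CPM per kb computed here (ratio 0.96 to 1.04). Gene lengths came from GENCODE M21 on GRCm38 and promoter sequences from RefSeq on GRCm38.p6.

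Counts of all 12 libraries were filtered with filterByExpr, scaled by TMM and fitted with edgeR 4.0.16 in R 4.3.3 with 1 mean per group. Each contrast was tested by the quasi-likelihood method, with p-values adjusted after Benjamini and Hochberg over 25771 genes. Calls needed an adjusted p under 0.05, a log2 fold change beyond 1 and a mean count over 10. Standard errors are the absolute log2 fold change divided by the root of F. Log2 CPM used a prior count of 2. Members and lists were chosen with earlier results of these data known. All members are named, and of the lists *Pax7*, *Myod1*, *Myog* and at most 4 genes each with the largest mean change among those called alike in both genotypes. For each member at most 2 genes of most similar log2 CPM are named, and 1 of these is not reported here. *Six3*, *Six6*, *Xirp1*, *Myf5*, *Myf6*, *Ckm*, *Klf4*, *Jun*, *Klf2*, *Myh3*, *Actc1*, *Tnni1*, *Des*, *Myom1*, *Tnnc1* and the genes named under alternatives were chosen after their values were seen. Depth was 3172164 to 23717013 counts per library. Alternatives were DESeq2 size factors, no filter, DESeq2 1.42.0, the compared groups alone, the adjusted p alone, the replicate block, library sizes without the ribosomal gene, thinned quiescent libraries, leaving out each library, and, added after seeing the data, leaving out both activated replicates 2.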

Additional observations from a re-analysis of the deposited data

Results flagged for a closer look

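The 9 members were checked for a single stray library in each group of 4, which makes 18 checks, of which chance flags about 1 in 20. *Eya2* was picked out in both quiescent groups, where 1 library lay far above the other 3. The stray values were 5.01 CPM in WT and 7.30 CPM in KO cells, each in replicate 1, with 96 and 140 counts. Without quiescent WT replicate 1 the log2 fold change of *Eya2* on activation in WT cells was -2.03 (adjusted p = 0.102 in edgeR's test), and without quiescent KO replicate 1 that between quiescent KO and WT cells was -0.12.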

How the results depend on the processing

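On activation in WT cells, 4 members were called with DESeq2 size factors, without a filter and with the compared groups alone, which lost *Eya2* (adjusted p = 0.0502, 0.0589 and 0.0516 in edgeR's test), and with the replicate block and thinned libraries, which lost *Eya1*. Leaving out 1 library gave 3 to 5 members in WT, with 3 without activated WT replicate 1 (*Eya4*, *Mef2c* and *Six5*), and 2 to 4 in KO cells, with 2 without activated KO replicate 1 (*Eya4* and *Mef2c*). Same-numbered libraries correlated in their deviations between -0.266 and 0.587. No source says what a number shares, and not all pairs deviated together, so the numbers were not taken as pairs, although quiescent WT and KO libraries of like number were of similar depth. With the replicate block the *Eya1* log2 fold change in WT was -0.84 (adjusted p = 0.0609), 4 members were called in each genotype, and 0 between KO and WT. Of the other pathway genes 0 were called between activated KO and WT cells, but 4 without a filter (*Myf6*, *Myh3*, *Myog* and *Xirp1*), 1 with DESeq2 (*Xirp1*), 1 with both activated replicates 2 left out (*Mapk11*), and 0 to 1 leaving out 1 library (*Rcan1* without activated WT replicate 2).

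Signs turned for small changes that were not called. Between activated KO and WT cells *Six4* was at -0.042 with DESeq2 size factors, -0.044 with DESeq2, -0.037 with the compared groups, -0.0069 with the block, -0.0040 without the ribosomal gene and -0.43 with both activated replicates 2 left out. *Eya4* was at -0.037, -0.037, -0.033 and -0.0016 with size factors, DESeq2, the compared groups and without the ribosomal gene. *Eya1* between quiescent KO and WT cells was at 0.044 with thinned libraries. Leaving out 1 library, log2 fold changes between activated KO and WT cells ranged from -0.31 to 0.22 for *Six4*, -0.14 to 0.54 for *Six5*, -0.13 to 0.078 for *Eya4*, -0.41 to 0.22 for *Mef2a* and -0.32 to 0.92 for *Mef2c*. Between quiescent KO and WT cells they ranged from -0.20 to 0.022 for *Eya1*, -0.12 to 0.80 for *Eya2*, -0.40 to 0.11 for *Mef2a* and -0.15 to 0.37 for *Mef2c*, and for *Mef2a* on activation in WT cells from -0.085 to 0.54. The share differences kept their sign and an exact permutation p of at most 0.0133 for *Mef2c*, *Eya4* and *Six5* in 13 alternatives each. The cause of these shifts was not tested. With 2 activated libraries per genotype, fits without 1 of them assume that the lone library varies like the other groups.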
